A study of Mus musculus with 6 samples.

Results

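The EGF receptor family and its ligands were examined in keratinocytes of the tail, the cells that make up most of the epidermis, from mice with and without an epidermal deletion of Gpr161. The group comprises 10 genes picked by symbol, all of them present among the 19618 genes of the deposited count table: the receptors Egfr, Erbb2 and Erbb3, the ligands Tgfa, Hbegf, Areg, Ereg, Btc and Epgn, and Errfi1, an inhibitor of the receptors. There were 6 libraries of polyadenylated RNA, 3 per genotype, from mice aged 4 months. The labels give the knockout mice as K14cre+ and Gpr161Flox-Homozygous, so Cre is driven by a keratin 14 promoter, which is active in basal cells of stratified epithelia. Of the control mice, 1 was Gpr161Flox-Homozygous and 2 were Gpr161Flox-Heterozygous, and their labels name no K14cre. Every mouse therefore carried at least 1 floxed allele, and which control column came from the homozygous mouse is not stated. The tags in the column names serve as library names here; DE679, DE688 and DE685 are knockout, and DE680, DE689 and DE684 are control.

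Receptors of this family are tyrosine kinases that pair at the cell surface when a ligand binds, and the pair then signals through the RAS to ERK kinase cascade and through PI3 kinase. The ligands are made as membrane-bound precursors that metalloproteases such as ADAM17 cut free, and they act mainly on the cell that made them or on its neighbours. In epidermis this signalling is known for sustaining the division of basal keratinocytes, for hair follicle shape and for wound closure. Gpr161 is a ciliary receptor known for restraining Hedgehog signalling.

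None of the 10 genes passed an adjusted p of 0.05 between the genotypes in any of the fits run, and the intervals were narrow for the receptors and wide for the rarest ligands. All 10 passed the filter on low counts, and by the edgeR quasi-likelihood test with Benjamini-Hochberg adjustment 0 were higher and 0 lower. Of the 15422 genes tested, 1.60% passed, 1.24% as higher and 0.357% as lower. At an unadjusted p under 0.05 there was 1, Ereg, where 19.0% of all genes tested had such a p. By other tools, the DESeq2 Wald test and limma-voom also called 0 of the 10, against 5.89% and 1.58% of the genes they tested. The log2 fold changes, knockout over control, had a median of −0.06 over the 10 genes and −0.0036 over all genes tested. They were above 0 for 4 genes and below 0 for 6. In 3 of the 10, Erbb3, Hbegf and Ereg, the groups did not overlap in CPM (counts relative to the library's total, which evens out depth), as was so for 25.6% of all genes tested. Erbb3 was the higher in the knockout, where 12.8% of all genes stood apart in that direction, and Hbegf and Ereg were lower, where 12.8% did.

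Total estimated counts were 17157864 to 25344399 per library. The libraries held the markers of the labelled cell type at high level. Krt5 had 13890 to 15700 CPM in the knockout and 11200 to 13720 in the control, and Krt14 had 8847 to 11470 CPM over all libraries. Of 7 basal keratinocyte markers tested, 5 were above 0 and 2 below, with 0 past the threshold. The groups did not overlap for 3 of the 7, all higher in the knockout (42.9%, against 12.8% of all genes tested in that direction). Markers listed for other cells ranged widely, from the lipid synthesis genes Scd1 (4925 to 5864 CPM) and Fasn (1271 to 1621 CPM) of the sebocyte list to Lyz2 of the immune list at 0 to 0.233 CPM. The muscle genes Ckm and Mylpf had 0.0389 to 0.289 CPM and 1.33 to 2.02 CPM. Of 5 fibroblast markers tested, 1 passed the threshold: the proteoglycan gene Dcn had 111.9 to 123.3 CPM in the knockout and 20.8 to 40.6 in the control (log2 fold change 1.90, SE 0.21, edgeR adjusted p 0.00782; adjusted p 0.117 without DE688 and DE689). The collagen gene Col1a1, on the same list, had 3.81 to 12.6 CPM and a log2 fold change of −0.38 (edgeR adjusted p 0.663). The 6 fibroblast markers summed to 129.0 to 142.3 CPM in the knockout and 37.4 to 79.1 in the control. Dcn made up most of the sum in every library, and of the 5 markers tested 2 had log2 fold changes above 0 and 3 below. The part of these markers in the results was not tested. Counts over the whole Gpr161 gene, which do not check the deletion of single exons, came to 25.9 to 33.6 CPM (knockout) and 30.2 to 32.2 CPM (control) (log2 fold change −0.13, SE 0.11, edgeR adjusted p 0.553). The Hedgehog target Gli1 came to 66.7 to 74.5 CPM (knockout) and 8.25 to 9.96 CPM (control) (2.93, SE 0.10, edgeR adjusted p 1.77e-05). Y-linked transcripts marked 1 library in each group, DE685 and DE684. The labels do not say that each library came from a separate mouse, so p-values measure the spread between these samples.

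**Figure D1:**
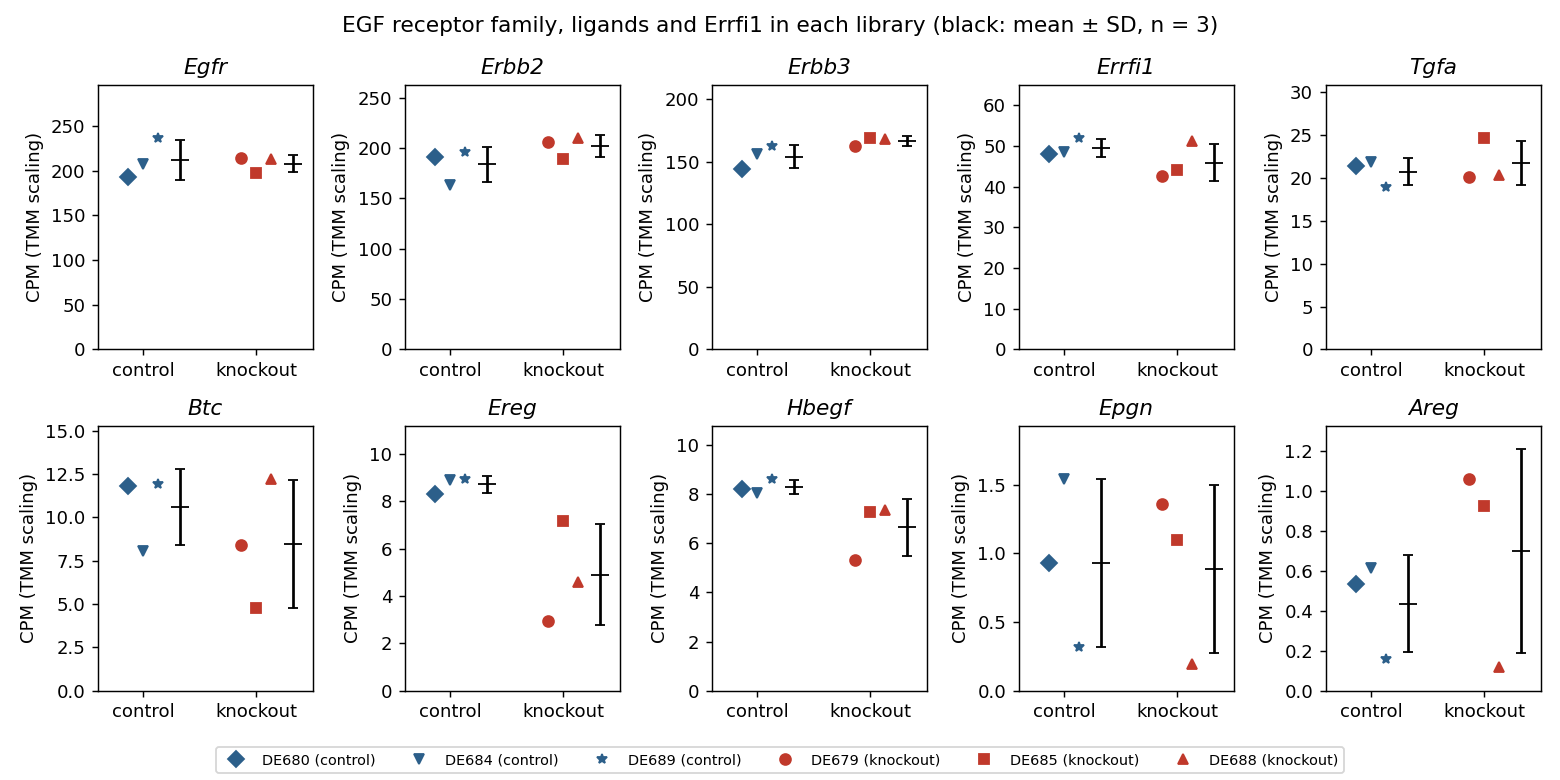
Level of each of the 10 genes in each library, as CPM with TMM scaling (vertical axes, from 0), for control (blue) and knockout (red); each symbol is 1 library and black bars are the mean ± SD of 3. The receptors vary little, Ereg and Hbegf are lower in every knockout library than in any control library, and Epgn and Areg are lowest in DE688 and DE689.

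The levels of the family spanned a wide range once scaled by length, and the receptors stood above every ligand. Level per length is CPM divided by the kilobases of annotated exon (GENCODE M21), which counts every isoform's exons and so understates a gene whose long exons are little used. Erbb2 was highest, with a median of 37.2 CPM per kb (31.4 to 40.3 over the 6 libraries), followed by Erbb3 at 27.0 (23.9 to 28.1) and Egfr at 18.5, with its highest library at 20.9. Errfi1 came next with a median of 13.5 CPM per kb (11.9 to 14.5). Among ligands Tgfa led at 3.22 CPM per kb (2.93 to 3.81), and its range lay above that of Btc at 2.23 (1.06 to 2.70). Ereg had a median of 1.87 CPM per kb (0.709 to 2.16) and Hbegf of 1.59 (1.10 to 1.78). The neighbours Erbb2, Erbb3, Egfr, Errfi1, Tgfa and Btc kept this order in 6 of 6 libraries. Btc, Ereg and Hbegf overlapped: Btc exceeded Ereg in 4 of 6 libraries, and Ereg exceeded Hbegf in 4. Epgn at 0.561 CPM per kb (0.108 to 0.850) and Areg at 0.472 (0.0960 to 0.872) were lowest, below Hbegf in every library and overlapping each other.

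**Figure D2:**
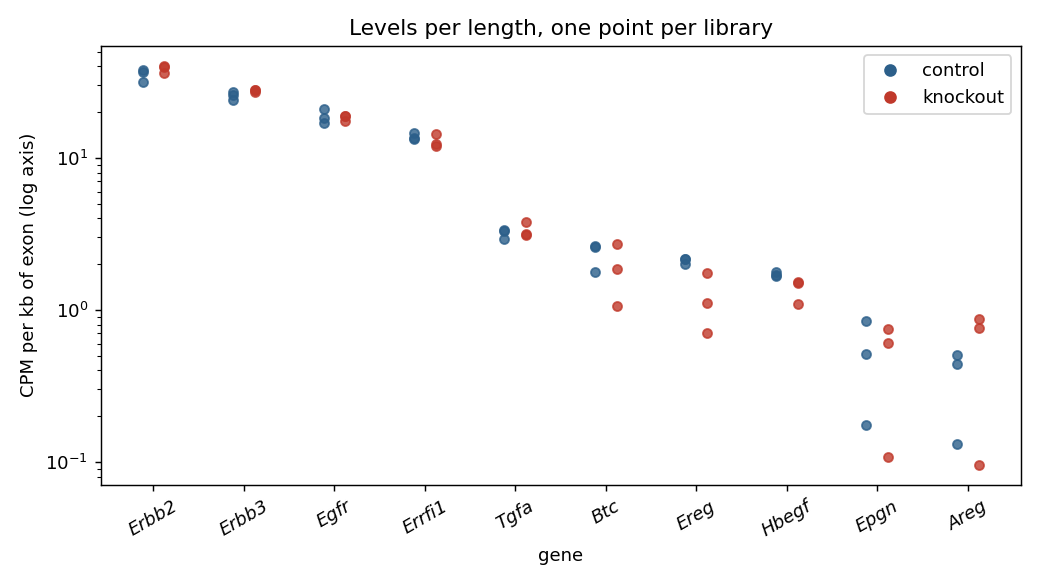
Level per length of the 10 genes in CPM per kb of exon (log axis), 1 point per library, ordered by the mean over 6 libraries, control in blue and knockout in red. Receptors and Errfi1 lie between 11.9 and 40.3 CPM per kb and the ligands between 0.0960 and 3.81.

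The shares of the 6 ligands in their summed level per length show which transcripts made up the pool of these 6. Egf, a further ligand of Egfr with 1.46 to 2.85 CPM, was not among the 10 genes and is left out of it. Tgfa held the largest share in each of the 6 libraries, 36.9% in DE679, 40.2% in DE685 and 36.2% in DE688 of the knockout, and 31.2% in DE680, 32.7% in DE684 and 29.9% in DE689 of the control. Ereg held 8.45% to 18.3% in the knockout and 19.0% to 22.0% in the control. The knockout shares of Tgfa all lay above the control shares and those of Ereg all below. Shares of 1 total move together by construction, and the CPM of Tgfa itself overlapped between the groups, as given below. The summed ligand level was 8.38 to 9.48 CPM per kb in the knockout and 9.82 to 10.6 in the control, with no overlap. Of single genes tested, 12.8% were higher and 12.8% lower in the knockout with no overlap. The sum includes Ereg and Hbegf, the 2 ligands whose own CPM was lower with no overlap. Of the 6 ligands, 0 passed the adjusted threshold.

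Egfr encodes the receptor that all 6 of these ligands bind, and its level was nearly the same in both groups. The gene lies on chromosome 11, 16752203 to 16918158, plus strand (GRCm38). It had 213.7 CPM in DE679, 212.8 in DE688 and 196.9 in DE685, and 192.8 in DE680, 236.7 in DE689 and 207.3 in DE684. The control libraries included both the lowest and the highest value. Knockout libraries averaged 207.8 ± 9.42 CPM and control libraries 212.3 ± 22.4 CPM (SD, n = 3 per group), which is −0.03 on the log2 scale (SE 0.08, edgeR adjusted p 0.876). The 95% interval ran from −14.4% to 11.9% of the control level, which bounds the difference that these libraries leave room for.

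Erbb2 encodes the family member with no known ligand of its own, which serves the others as a partner. It lies on chromosome 11, 98412470 to 98437716, plus strand. Its level was 206.1 CPM in DE679, 210.0 in DE688 and 189.0 in DE685, and 191.3 in DE680, 196.3 in DE689 and 163.6 in DE684. The groups overlapped, and DE684 was the lowest library. The log2 fold change was 0.13 (SE 0.08, edgeR adjusted p 0.410), with a 95% interval of −3.82% to 25.4%, and 0.06 without DE684. A stretch of 9 exon bases is shared with Mien1 on the opposite strand, and whether counting used strand is not given in the sources used here.

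Erbb3 encodes a receptor for neuregulins that has little kinase activity and signals through its partner. It lies on chromosome 10, 128567523 to 128589652, minus strand. Its level was 162.3 CPM in DE679, 168.1 in DE688 and 169.1 in DE685, and 144.1 in DE680, 162.2 in DE689 and 156.1 in DE684. The groups were apart only by the gap between DE679 and DE689, which is 162.3 against 162.2 CPM. Means were 166.5 ± 3.71 and 154.1 ± 9.22 CPM (SD, n = 3 per group), or 0.11 on the log2 scale (SE 0.06, edgeR adjusted p 0.357; 95% interval −1.98% to 19.1%), and 0.06 without DE680. Melanocytes and Schwann cells also use Erbb3. The 8 melanocyte markers all had log2 fold changes above 0 with 0 past the adjusted threshold, and their summed level was 87.8 to 127.5 CPM in the knockout and 61.0 to 88.3 in the control. The 5 Schwann cell markers summed to 4.97 to 9.02 against 4.44 to 5.99 CPM. Their part in the Erbb3 values was not tested, and in bulk RNA the number of cells of a type and the RNA per cell cannot be told apart.

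Errfi1 encodes a cytoplasmic protein that EGF receptor signalling induces and that binds the receptor's kinase domain and inhibits it. The gene lies on chromosome 4, 150853919 to 150868892, plus strand. It had 42.6 CPM in DE679, 51.2 in DE688 and 44.0 in DE685, and 48.0 in DE680, 52.0 in DE689 and 48.5 in DE684. The knockout libraries DE679 and DE685 were lowest, and DE688 lay within the control range. The log2 fold change was −0.11 (SE 0.09, edgeR adjusted p 0.536), and its 95% interval was −19.2% to 6.61%.

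Among the ligands, Tgfa, a keratinocyte growth factor whose loss gives mice a wavy coat, was the steadiest. It lies on chromosome 6, 86195223 to 86275719, plus strand. It had 20.1 CPM in DE679, 20.4 in DE688 and 24.7 in DE685, and 21.4 in DE680, 19.0 in DE689 and 21.9 in DE684. The groups overlapped, with the highest value in a knockout library and the lowest in a control library. The log2 fold change was 0.06 (SE 0.11, edgeR adjusted p 0.798; 95% interval −12.4% to 24.4%). Of its exon bases, 118 are shared with Gm43917 on the opposite strand, which had at most 4 counts in a library.

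Ereg (epiregulin) had the smallest p of the 10 genes and did not pass the adjusted threshold. It encodes a ligand of Egfr and Erbb4 and lies on chromosome 5, 91074622 to 91093646, plus strand. It had 2.93 CPM in DE679, 4.59 in DE688 and 7.16 in DE685, and 8.30 in DE680, 8.93 in DE689 and 8.91 in DE684. Every knockout library was below every control library, and the knockout values were the more scattered. Knockout libraries averaged 4.89 ± 2.13 CPM and control libraries 8.71 ± 0.358 CPM (SD, n = 3 per group), or −0.84 on the log2 scale (SE 0.29, edgeR unadjusted p 0.0201, adjusted p 0.184). The 95% interval of that change, not adjusted for the number of genes, was −65.0% to −11.3%. Across 16 other fits the log2 fold change was −1.21 to −0.57, and the adjusted p was 0.0607 (DESeq2) to 0.521. Leaving out DE679, the lowest library, gave −0.57. The exons share 141 bases with the antisense Gm19610, which had at most 3.40 counts in a library. In 3 libraries the Ereg count lay more than 0.1 from a whole number, and how reads were divided among features is not given in the sources used here. Beside it, 7 of 8 suprabasal keratinocyte markers were below 0 (0 past the threshold). Their summed level was 18790 to 26090 CPM in the knockout and 21320 to 35370 in the control. Krt10 made up most of this sum in every library, and its groups overlapped (edgeR adjusted p 0.423). The groups did not overlap for 4 of the 8 markers, all lower in the knockout, where 12.8% of all genes tested stood apart in that direction. The part of these markers in the Ereg values was not tested.

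The genes most like Ereg over the 6 libraries, by Pearson's r of log2(CPM + 1) among 11027 genes with a mean of at least 5 CPM, were Pphln1 (r = 0.985), Pmpca (0.985) and Ppp2r2d (0.984). Their own log2 fold changes were −0.20, −0.10 and −0.22, with edgeR adjusted p of 0.225, 0.380 and 0.180. With 6 libraries in 2 groups, such values describe these libraries only. Pearson's r ignores the size of a change, and a shared difference between the groups raises it.

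Hbegf, the heparin-binding ligand known from wound closure, lies on chromosome 18, 36504927 to 36515805, minus strand. It had 5.30 CPM in DE679, 7.35 in DE688 and 7.28 in DE685, and 8.21 in DE680, 8.61 in DE689 and 8.03 in DE684. The knockout libraries all lay below the control libraries, DE679 the furthest, as for Ereg. Means were 6.64 ± 1.16 and 8.28 ± 0.297 CPM (SD, n = 3 per group), or −0.32 on the log2 scale (SE 0.16, edgeR adjusted p 0.325; 95% interval −38.2% to 3.95%). Leaving out DE679 moved it to −0.17.

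Btc (betacellulin), which binds Egfr and Erbb4, lies on chromosome 5, 91357261 to 91402994, minus strand. It had 8.40 CPM in DE679, 12.2 in DE688 and 4.79 in DE685, and 11.8 in DE680, 11.9 in DE689 and 8.03 in DE684. The libraries with Y-linked transcripts, DE685 and DE684, were the lowest of their groups, and the groups overlapped. The log2 fold change was −0.31 (SE 0.32, edgeR adjusted p 0.630; 95% interval −51.5% to 33.8%). With sex as a covariate it was −0.37 (edgeR adjusted p 0.300), and in the 4 libraries without Y-linked transcripts it was −0.20 (edgeR adjusted p 0.635). Leaving out DE685 gave −0.04 and leaving out DE688 gave −0.68.

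**Figure D3:**
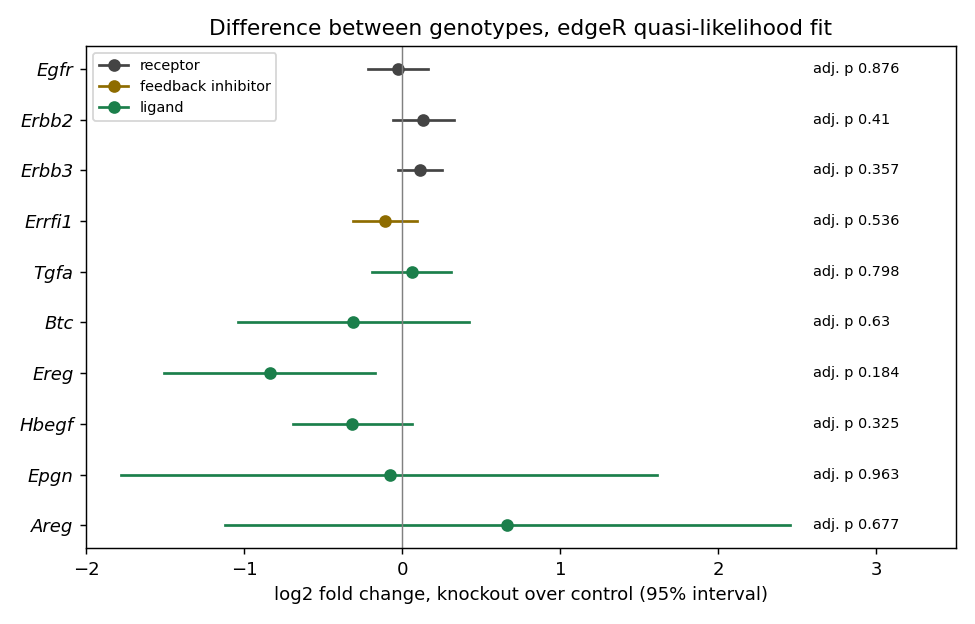
Log2 fold change, knockout over control, of the 10 genes with 95% intervals from the edgeR quasi-likelihood fit and the adjusted p of each. Of the 10 intervals 9 include 0; that of Ereg runs from −1.51 to −0.17, and those of Areg and Epgn are the widest.

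Areg (amphiregulin) and Epgn (epigen), the least abundant ligands, varied widely among the libraries of each genotype. Areg lies on chromosome 5, 91139599 to 91148432, and Epgn on chromosome 5, 91027464 to 91035215, both on the plus strand. With Ereg and Btc they form a group of 4 ligand genes within 375.5 kb. Areg had 25 counts in DE679, 3 in DE688 and 16 in DE685, and 12 in DE680, 4 in DE689 and 14 in DE684. Epgn had 32 counts in DE679, 5 in DE688 and 19 in DE685, and 21 in DE680, 8 in DE689 and 35 in DE684. For both genes the lowest libraries were DE688 of the knockout and DE689 of the control, although these are the deepest libraries.

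In CPM, Areg was 0.117 in DE688 (exact 95% Poisson interval 0.0241 to 0.341) and 0.159 in DE689 (0.0432 to 0.406), against 0.532 to 1.06 in the other 4 libraries. Epgn was 0.194 CPM in DE688 (0.0631 to 0.454) and 0.317 in DE689 (0.137 to 0.625), against 0.932 to 1.54 elsewhere. The intervals of DE688 did not reach those of DE679 for either gene (0.686 to 1.56 CPM for Areg, 0.928 to 1.92 for Epgn), and cover counting error only. For Areg, the intervals of DE688 and DE689 overlapped those of DE680 (0.275 to 0.93 CPM) and DE684 (0.336 to 1.03). For Epgn, that of DE689 overlapped that of DE680 (0.577 to 1.42 CPM). From the lowest to the highest library, Areg spanned 9.08-fold and Epgn 7.90-fold. The median of that span over all genes tested, with values of 0 left out, was 1.38-fold, and the receptors spanned 1.17-fold to 1.28-fold. Such spans widen as counts fall, and no comparison with genes of a like level was made. The log2 fold change between genotypes was 0.66 for Areg (SE 0.77, edgeR adjusted p 0.677; interval −1.12 to 2.45) and −0.08 for Epgn (SE 0.73, edgeR adjusted p 0.963; interval −1.78 to 1.61). Both intervals include a change of the size estimated for Ereg, so such a change is not excluded at this depth and spread. Without DE688 and DE689 the values were 0.79 for Areg and −0.0019 for Epgn, with edgeR adjusted p of 0.539 and 0.999. Leaving out DE679 moved Areg to 0.18 and leaving out DE688 moved it to 1.20.

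**Figure D4:**
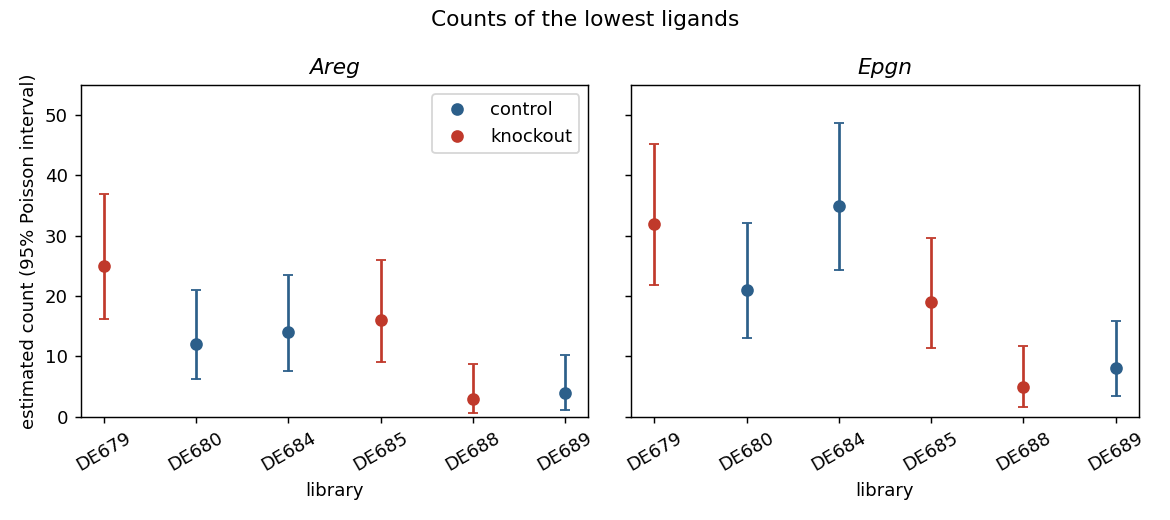
Estimated counts of Areg and Epgn in each library (points) with exact 95% Poisson intervals (bars), control in blue and knockout in red. Both genes are lowest in DE688 and DE689, 1 library of each genotype.

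The sequences upstream of these genes are shown because Areg and Epgn were low in the same libraries. RefSeq promoter windows on GRCm38.p6, 250 bases before to 50 after a transcript start, matched 7 of the 10 genes in 8 windows. Erbb3, Hbegf and Ereg had no entry. Below, each window is printed up to the first annotated exon base, plus strand, with capitals for a match to the cAMP response element TGACGTCA. Areg is at chr5:91139349-91139598 and Epgn at chr5:91027267-91027463.
Areg: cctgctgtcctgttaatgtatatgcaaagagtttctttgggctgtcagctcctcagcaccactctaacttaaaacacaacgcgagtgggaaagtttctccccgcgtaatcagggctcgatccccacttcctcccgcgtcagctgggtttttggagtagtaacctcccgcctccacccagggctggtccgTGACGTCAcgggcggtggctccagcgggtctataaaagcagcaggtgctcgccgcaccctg
Epgn: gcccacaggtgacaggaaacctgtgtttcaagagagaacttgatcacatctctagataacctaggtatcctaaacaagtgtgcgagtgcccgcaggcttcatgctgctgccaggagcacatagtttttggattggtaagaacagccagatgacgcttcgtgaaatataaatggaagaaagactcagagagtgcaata

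The Areg sequence holds 1 cAMP response element and the Epgn sequence holds none. Searched on both strands, TGACGTCA was in 588 of 32851 windows of 300 bases (1.79%), and in 2 of the 8 windows of this family, those of Areg and of Errfi1. The AP-1 motif TGANTCA was in 7.81% of all windows and the GLI motif GACCACCCA in 0.253%, and both were in 0 of the 8. The letters searched for cAMP response elements and for AP-1 cannot match the same bases exactly. A match describes the letters only.

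The rest of the pathway, a list of 63 further genes by role, held no gene past the threshold either. Of these, 59 passed the filter, with 0 higher and 0 lower by edgeR and by limma-voom, and 16 had an unadjusted p under 0.05 (27.1%, against 19.0% of all genes tested). The DESeq2 Wald test called 7 of them, against 5.89% of its genes: 3 were higher (Lrig1, Ptprk and Socs5) and 4 lower, among them Cbl, Sos2 and Spry1. Socs5, Cbl and Spry1, like Egf and Nrg4, fell outside the naming rule and were chosen after their values were seen. The median log2 fold change of the 59 was 0.00, with 29 above and 30 below 0, and the groups did not overlap for 19 of them (32.2%, against 25.6% of all genes tested).

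Negative regulators held the largest differences with separate groups, in both directions. Of 17 tested, 11 were above and 6 below 0. The groups did not overlap for 8 of them (47.1%, against 25.6% of all genes tested), 3 higher and 5 lower in the knockout, where all genes had 12.8% in each direction. Lrig1, a membrane protein that lowers receptor abundance and marks stem cells of the upper hair follicle, had 163.8 CPM in DE679, 228.6 in DE688 and 152.7 in DE685. The control libraries had 109.8 CPM in DE680, 131.0 in DE689 and 116.1 in DE684. All knockout values lay above all control values, with 0.61 on the log2 scale (SE 0.15, edgeR adjusted p 0.0973, DESeq2 adjusted p 0.00109). Beside it, 7 of 8 hair follicle markers had log2 fold changes above 0 and 1, Nfatc1, passed the threshold. Their summed level was 3987 to 4865 CPM in the knockout and 2937 to 3815 in the control, and its part in the Lrig1 values was not tested. Ptprk, a receptor phosphatase, averaged 71.0 ± 7.89 CPM in knockout libraries and 54.0 ± 2.99 CPM in control libraries (SD, n = 3 per group; log2 fold change 0.39, SE 0.09, edgeR adjusted p 0.0892, DESeq2 adjusted p 0.00905).

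For ligand release, Rhbdf2, which is needed for the maturation of the protease ADAM17, averaged 121.1 ± 1.29 CPM in knockout libraries and 104.8 ± 7.72 CPM in control libraries (SD, n = 3 per group; log2 fold change 0.21, SE 0.07, edgeR adjusted p 0.158). The metalloprotease gene Adam15 had a log2 fold change of −0.15 (edgeR adjusted p 0.232), and 3 of 6 release genes tested were below 0. The groups did not overlap for 4 of the 6 (66.7%, against 25.6% of all genes tested), 1 higher and 3 lower in the knockout. All genes had 12.8% in each direction. Among the neuregulins, which bind Erbb3, Erbb4 or both, Nrg1 had 3.48 ± 1.14 against 5.09 ± 1.73 CPM (−0.56, SE 0.33, edgeR adjusted p 0.398). Nrg2 had 10.3 ± 0.942 against 14.1 ± 3.97 CPM (−0.46, SE 0.21, edgeR adjusted p 0.276), and both overlapped between groups. Nrg4 went the other way, with 16.5 ± 2.42 against 14.5 ± 1.17 CPM (0.18, SE 0.13, edgeR adjusted p 0.481), and its groups overlapped too. Leaving out DE680, the control library highest in Nrg2, gave −0.25 for Nrg2, and leaving out DE685 gave −0.85 for Nrg1. Erbb4, the remaining receptor of the family, had 1 to 8 counts in a library and did not pass the filter.

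Downstream, 7 of 8 adaptor genes tested were below 0. The groups did not overlap for 3, all lower (37.5%, against 12.8% of all genes tested in that direction). Sos2, which loads RAS with GTP, had 68.0 ± 3.92 against 85.4 ± 7.81 CPM (−0.33, SE 0.08, edgeR adjusted p 0.104, DESeq2 adjusted p 0.0256), and Plcg1, a phospholipase, had −0.17 on the log2 scale (edgeR adjusted p 0.225). In the kinase cascade the split was 7 above and 7 below 0. The groups did not overlap for 4 of its 14 genes (28.6%, against 25.6% of all genes tested), 2 higher and 2 lower. Nras, which encodes a RAS protein, had 174.0 ± 6.81 against 194.4 ± 1.31 CPM (−0.16, SE 0.05, edgeR adjusted p 0.172), and was lower in every knockout library than in any control library. Of 10 responsive genes tested, 0 had separate groups, against 25.6% of all genes tested. The transcription factor gene Egr1 had 89.9 CPM in DE679, 185.9 in DE688 and 137.2 in DE685 and 86.0 to 110.8 CPM in the control (0.45, SE 0.23, edgeR adjusted p 0.335). Its highest value was in DE688, a library with low Areg and Epgn, and leaving DE688 out gave 0.17 on the log2 scale.

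**Figure D5:**
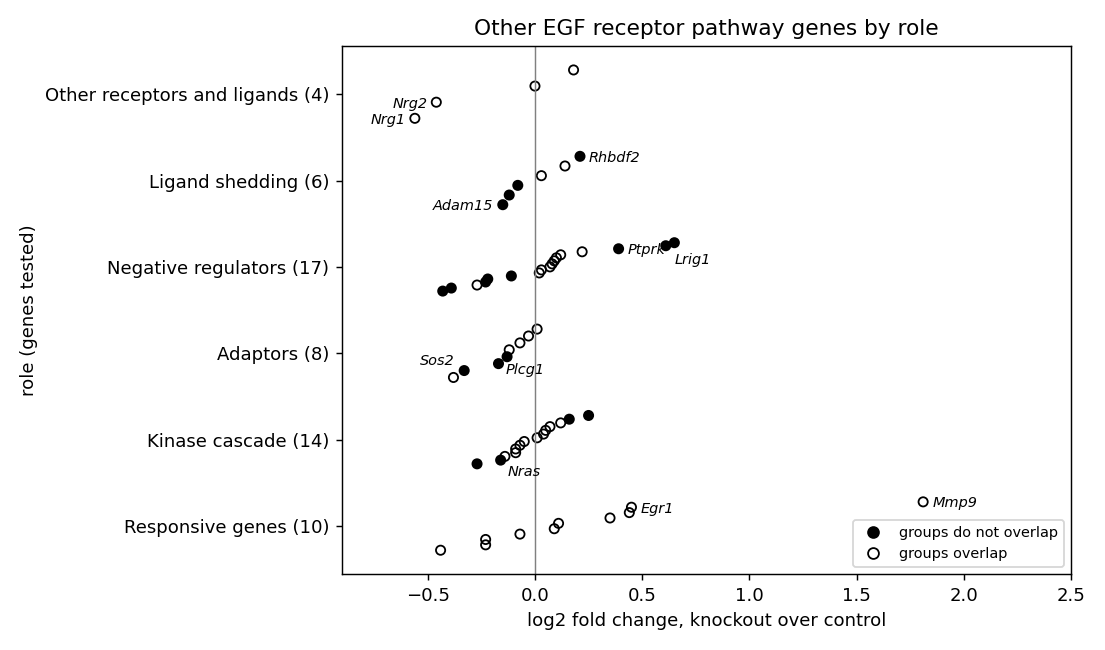
Log2 fold change, knockout over control, of 59 further pathway genes by role; each circle is 1 gene, filled where the groups do not overlap in CPM, and genes of the smallest p in each role are named, at most 2 a role. Values spread to both sides of 0, and none passed the adjusted threshold in the edgeR fit.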

How the data were processed

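The authors deposited estimated counts per gene, which are not whole for every gene (53.0% to 57.7% of a library's values are whole), and a normalized signal per gene in which a deposited value is 0.001 above the count scaled by 1 factor per library. The submitters' processing notes name bcl2fastq 2.20, cutadapt 1.18, STAR 2.7.0f, Partek and the build mm10, with no role or order; the counting step and its use of strand are not given in the sources used here. Deposited end positions are 1 base beyond those of GENCODE M21 (GRCm38), whose positions are printed.

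Column names give genotype only. Estimated counts were rounded, a change from the plan for raw counts, filtered with filterByExpr, scaled with TMM factors (0.975 to 1.03) and fitted with the edgeR 4.0.16 quasi-likelihood test on genotype, with Benjamini-Hochberg adjustment and a threshold of 0.05. No pair of libraries in a group agreed within counting error (12.2 to 39.9 chi-square per degree of freedom). With 3 against 3, an exact permutation p cannot go below 0.1. Alternatives used DESeq2 1.42.0 and limma 3.58.1, other scaling and filters, a sex covariate and left-out libraries. The fit was tested on simulated data.

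The members and lists were chosen with earlier results of these data known. Genes named are the 10, Gpr161, Gli1, list markers, the 3 genes most like the member of smallest p, and of each pathway role those past the threshold or the 2 of smallest p; some items are not reported here. In the libraries, 3 counts equal 0.117 to 0.173 CPM. The labels mention no molecular identifiers, so intervals and floors cover counting error only.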

Additional observations from a re-analysis of the deposited data

How the results depend on the processing

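The count of 0 among the 10 genes held in all 16 alternatives, although a minimum mean of 1 CPM left 8 of them to test. The number of all genes past the threshold was 247 and moved to 872 with DESeq2, 409 with a sex covariate, 87 in the libraries without Y-linked transcripts and 16 without DE688 and DE689, a choice made after seeing the data. Leaving out 1 library gave 69 (without DE688) to 121 (without DE684), and fits with fewer libraries tend to call fewer genes. For the other pathway genes the count moved from 0 to 7 with DESeq2 and to 1 (Spry1) with a sex covariate, and was 0 to 1 with a library left out, the 1 being Socs5 without DE680; the cause was not tested.

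Of 158 fold changes of the 10 genes under alternatives, 150 kept their direction and 8, in 3 genes, reversed. Epgn became 0.020 with a sex covariate and 0.31 in the libraries without Y-linked transcripts, and was −0.58 to 0.49 with a library left out. Egfr became 0.037 without DE688 and DE689, and was −0.10 to 0.06 with a library left out. Tgfa was −0.039 to 0.12 with a library left out. Of 287 fold changes of 18 other named genes, 0 reversed, 8 came to pass the threshold, 6 of them with DESeq2, and 3 no longer passed: Dcn and Nfatc1 without DE688 and DE689 (edgeR adjusted p 0.117 and 0.096) and Nfatc1 in the libraries without Y-linked transcripts (0.0638). No paired analysis was possible because the columns carry no replicate numbers. Depth limits Areg and Epgn, with 3 to 35 counts in a library.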

Other observations

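Mmp9, a matrix protease gene, had 3 counts in DE685 and 4 in DE684, the libraries with Y-linked transcripts, and 10 to 63 counts in the other 4. Its log2 fold change between genotypes was 1.81 (SE 0.82, edgeR adjusted p 0.281), and 0.63 to 2.30 across 15 other fits. Without DE679 it was 0.93. The summed level of the 7 immune markers was 40.8 CPM in DE685 and 20.4 in DE684, against 57.9 to 97.0 CPM in the others. Cd74 made up most of this sum in every library. The T cell genes Cd3e and Trdc were also lowest in DE685 and DE684, but Ptprc and Cd3g of the same list were not. The Langerhans cell gene Cd207 was lowest in DE684, at 0.263 CPM. With 1 such library in each group, a difference by sex was not tested.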
